A study of Homo sapiens with 2 samples.

Results

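The 10 genes described here are the AMER family, AMER1 (also called WTX), AMER2 and AMER3, and the core of the complex that marks β-catenin for degradation, namely APC, APC2, AXIN1, AXIN2, GSK3B, BTRC and the substrate gene CTNNB1 itself. They were fixed by name with earlier results of these data known, out of 19775 genes with a probe set of their own. Each was read by every probe set of the array that the platform annotation assigns to that gene alone. This gave 32 probe sets among 54613, and 0 probe sets joined a member to another gene. All RNA came from AGS, an established human gastric adenocarcinoma line that is known to carry an activating mutation of CTNNB1. AGS.W cells were transduced with a lentivirus holding the complete WTX coding region and selected with puromycin, and AGS.veh cells are the negative control. Each line was measured on 1 Affymetrix U133 Plus 2.0 array, where several probe sets can read the same gene. Without replicates there is no p-value and no standard error, and each difference given here is between 2 cultures. In bulk RNA, fewer cells with a transcript and less transcript per cell cannot be told apart.

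AMER1 is a membrane adaptor: it binds phosphoinositides at the plasma membrane and brings APC and other parts of the destruction complex to it. In that complex AXIN1 and APC hold β-catenin beside the kinases CK1α and GSK3β, whose phosphorylation of β-catenin is recognised by β-TrCP, the F-box protein encoded by BTRC, and leads to ubiquitination and degradation by the proteasome. Much of this control acts on protein, which arrays of mRNA do not read. AXIN2 is a transcriptional target of β-catenin and a part of the complex at the same time, and is widely used as a readout of Wnt signalling.

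The deposited values are log2 signals, on which a difference of 1 is 2-fold, the fold threshold in the study's methods. Levels of different probe sets cannot be compared with each other, since each binds its target differently. Instead, the median of all probe sets of an array, 4.02 in AGS.W beside 4.03 in AGS.veh, served as the mark below which signal may be background. Of the 32 member probe sets, 14 reached this median on both arrays, 5 on 1 array and 13 on neither. The epithelial markers EPCAM, KRT8, KRT18 and CLDN4 lay above it on both arrays on their brightest probe sets. KRT19 and the epithelial cadherin CDH1 lay below it on both. The extraction protocol of the labels names a brain tissue, whereas other fields and the methods name AGS cells. The brain cell markers GFAP, AQP4, SYT1 and NEFL lay below the median on both arrays, and MBP, MOG, RBFOX3 and SLC17A7 above it on their brightest probe sets. No gene called below is one of these markers, and the part of other cells in the signals was not tested.

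None of the 32 member probe sets differed by 2-fold between AGS.W and AGS.veh. Over all probe sets, 1.07% were at least 2-fold higher in AGS.W and 1.12% at least 2-fold lower, so a set of this size would hold few such probe sets in any case. Member differences ran from -0.53, on a BTRC probe set, to 0.82, on an AXIN2 probe set, in log2 units of AGS.W minus AGS.veh. At a fold of 1.5, 2 member probe sets were higher, 1 of AXIN2 and 1 of BTRC, and 0 were lower, beside 4.42% and 4.72% of all probe sets. In AGS.W, 18 member probe sets were higher, 7 were lower and 7 had the same value on both arrays. The median member difference was 0.05, beside 0.00 over all probe sets. Without regard to direction, the median size of the difference was 0.157 for the members and 0.199 for all probe sets. Among probe sets that reached the median on both arrays these sizes were 0.135 for the 14 of the members and 0.216 for all 26115.

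**Figure D1:**
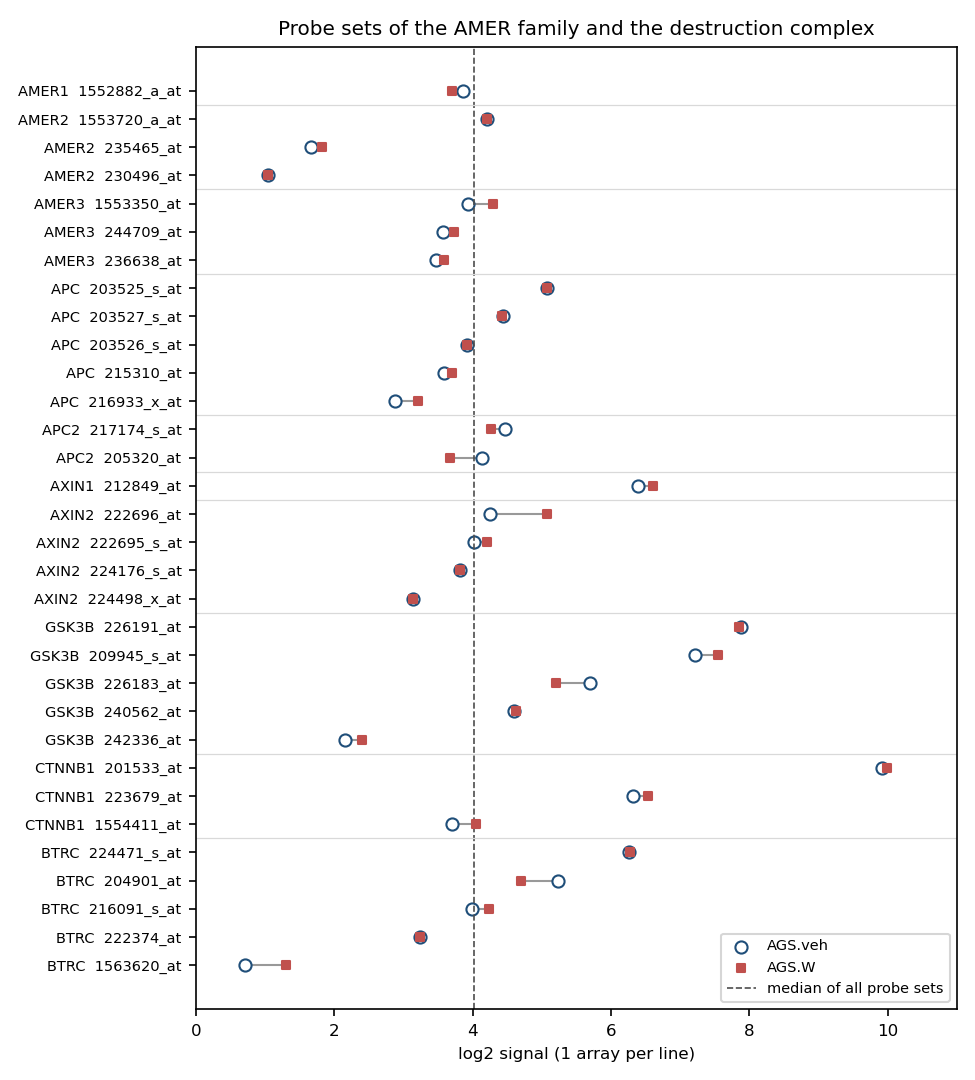
Log2 signal (horizontal axis) of the 32 probe sets of the 10 genes in AGS.veh (open circles) and AGS.W (filled squares), 1 array each, with the median of all probe sets as a dashed line. The widest gap is that of AXIN2 222696_at, at 4.24 in AGS.veh and 5.07 in AGS.W, and the single AMER1 probe set lies left of the line on both arrays.

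AMER1, the gene that AGS.W cells were made to overexpress, was not higher on the array of these cells. Its single probe set, 1552882_a_at, read 3.70 in AGS.W beside 3.86 in AGS.veh, a difference of -0.16 or 1.11-fold lower. Both values lie below the array medians. Whether 1552882_a_at binds within the coding region that the vector carries was not determined here. The probe set therefore does not settle whether the labels are right, and AGS.W and AGS.veh are used as given. The paper examined WTX protein in its overexpression lines by Western blot, which these arrays do not read.

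Most probe sets of AMER2 and AMER3 also lay below the median on both arrays. AMER2, known mainly from neural tissue, had 4.21 on both arrays for 1553720_a_at and 1.04 on both for 230496_at, while 235465_at had 1.82 in AGS.W beside 1.66 in AGS.veh. AMER3 had 4.29 in AGS.W beside 3.93 in AGS.veh on its brightest probe set, 1553350_at, a difference of 0.35. Its other probe sets, 244709_at and 236638_at, were higher in AGS.W by 0.16 and 0.12 and lay below the median on both arrays. Of the 7 probe sets of the family, 1 reached the median on both arrays, 1 on 1 array and 5 on neither. The highest signal of the family was 4.29, close to the median, so the arrays give its members no firm level in either line.

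The APC scaffold, a tumour suppressor that is lost in most colorectal cancers, had the same signal in both lines on its brightest probe set. APC 203525_s_at had 5.07 on both arrays and 203527_s_at had 4.42 in AGS.W beside 4.44 in AGS.veh. The other APC probe sets lay below the median, 203526_s_at with 3.91 on both arrays, 215310_at with a difference of 0.11 and 216933_x_at with 0.33. APC2, a relative of APC that is most abundant in the nervous system, was lower in AGS.W on both of its probe sets. For 217174_s_at the signals were 4.27 in AGS.W beside 4.47 in AGS.veh, and for 205320_at 3.67 and 4.13, a difference of -0.47 that crosses the median. AXIN1, the central scaffold of the complex, was read by 212849_at alone, at 6.60 in AGS.W beside 6.38 in AGS.veh, or 1.16-fold higher.

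AXIN2 had the largest difference of the members, and 1 of its 4 probe sets carried it. On 222696_at, AXIN2 had 5.07 in AGS.W beside 4.24 in AGS.veh, 1.77-fold higher and short of 2-fold. The neighbouring 222695_s_at had 4.20 and 4.02, a difference of 0.19. Both remaining AXIN2 probe sets had the same value on both arrays, 3.81 for 224176_s_at and 3.14 for 224498_x_at, below the median. Averaged over the 4 probe sets, AXIN2 had a difference of 0.25. No AXIN2 probe set was lower in AGS.W.

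GSK3B, the kinase that phosphorylates β-catenin after priming, was read by 5 probe sets that did not share a direction. Its brightest, 226191_at, had 7.84 in AGS.W beside 7.88 in AGS.veh. The next, 209945_s_at, was higher in AGS.W, with 7.54 against 7.21, whereas 226183_at was lower, with 5.20 against 5.69. On 240562_at the signals were 4.63 and 4.60, and on 242336_at, below the median, 2.40 and 2.15. Averaged over the 5 probe sets, the GSK3B difference was 0.02.

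CTNNB1, which encodes β-catenin, had nearly the same bright signal in both lines. Its main probe set, 201533_at, had 9.99 in AGS.W beside 9.92 in AGS.veh, a difference of 0.07 or 1.05-fold. All 3 CTNNB1 probe sets were higher in AGS.W, 223679_at with 6.54 and 6.32 and 1554411_at with 4.05 and 3.70, the last of these around the median. These values are of mRNA and give no amount of β-catenin protein, the quantity on which the complex acts.

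BTRC, which encodes the receptor that binds phosphorylated β-catenin, was level on its brightest probe set and split on the others. The signals of 224471_s_at were 6.27 in AGS.W beside 6.25 in AGS.veh. On 204901_at they were 4.70 and 5.23, a difference of -0.53, and on 216091_s_at the difference was 0.24. The remaining BTRC probe sets were far below the median, 222374_at with 3.23 on both arrays and 1563620_at with 1.29 and 0.71. The second of these is the BTRC probe set that passed 1.5-fold. With _x_at and _s_at probe sets left out, which may bind several transcripts, BTRC was represented by 204901_at and its difference was -0.53.

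**Figure D2:**
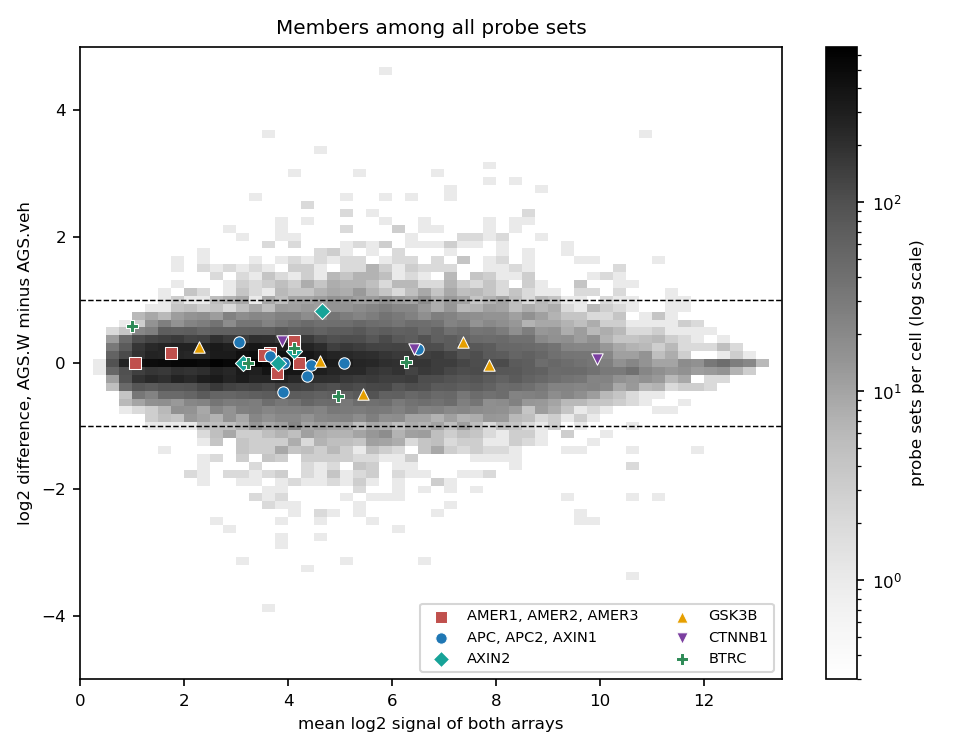
Difference AGS.W minus AGS.veh in log2 units (vertical axis) against the mean log2 signal of both arrays (horizontal axis) for all 54613 probe sets, as shaded counts per cell on a log scale, with the 32 member probe sets as coloured symbols. Dashed lines mark 2-fold, and all 32 members lie between them.

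Many member values coincided exactly with those of other probe sets, which limits how finely they can be read. The AMER1 signal in AGS.W was held by 108 further probe sets of that array to the last deposited digit, and its AGS.veh signal by 67. For 11 of the 32 member probe sets both signals were shared with other probe sets in this way, 1 of them above the median on both arrays. The same value in both lines was found for 7 of the 32 member probe sets, or 21.9%, beside 12.6% of all probe sets. Below the median on both arrays it was found for 5 of 13 member probe sets, beside 21.5% of all. The other identical members, AMER2 1553720_a_at and APC 203525_s_at, lay above the median on both, where 4.9% of all probe sets were identical. Sizes of differences recurred as well when compared to 6 decimals. The 0.20 by which APC2 217174_s_at was lower occurred on 803 other probe sets, in either direction, and the 0.22 of CTNNB1 223679_at on 343. Of the 25 member differences other than 0, 11 had a size found on more than 50 other probe sets, beside 34.4% of all such differences. The differences of AXIN2 222696_at, AXIN1 and the brightest CTNNB1, GSK3B and BTRC probe sets had sizes found on at most 3 others. How these repeats arose in the processing was not tested.

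The rest of the pathway was described from 6 lists, in which a gene stands for its brightest probe set and had to reach the array median on at least 1 array. Of 126 listed genes, 118 had a probe set of their own and 100 passed, of which 1 was at least 2-fold higher in AGS.W and 5 at least 2-fold lower. Over all 12811 genes that passed, 1.83% were 2-fold higher and 1.94% 2-fold lower. The lists were chosen with earlier results of these data known, which limits what this comparison can show. The median difference was 0.00 for the 100 genes and -0.01 for all.

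Of the other degradation machinery, 20 of 22 genes passed, with a median of -0.06, 8 higher and 12 lower. TNKS, the tankyrase that marks axins for destruction, was the 1 gene at least 2-fold apart, with 7.10 in AGS.W beside 6.09 in AGS.veh. Its other 3 probe sets, all below the median, had differences of 0.00, 0.22 and 0.35, and its relative TNKS2 had 0.10. RNF146, the ligase that acts on axins after tankyrase, had a difference of -0.31, but of 0.38 on its other, dim probe set. The deubiquitinase USP34 had 0.01 on its brightest probe set and up to 0.43 on others, and was lower on none. The ubiquitin ligase that BTRC serves also contains SKP1, with -0.06, CUL1, with -0.60, and RBX1, with 0.01. SKP1 was lower on all 4 of its probe sets, with a mean of -0.20. CUL1 had 0.54 on its other probe set, so its direction depends on the probe set. FBXW11, the second β-TrCP gene, had -0.26 and was lower on both of its probe sets. CSNK1A1, the priming kinase CK1α, had 0.18 and was higher on 12 of 13 probe sets. Among related kinases GSK3A had -0.18, CSNK1D 0.12, CSNK1E -0.05, CSNK1G1 -0.38 and CSNK1G2 -0.17. GSK3A had 0.10, CSNK1D -0.35 and CSNK1G1 0.24 on another probe set above the median, so none of them had a settled direction. The phosphatase genes PPP2CA, PPP2CB and PPP2R1A had -0.17, -0.12 and -0.15, and the proteasome gene PSMD14 -0.05. PPP2CA had 0.09 on another probe set above the median, so its direction was not settled either. The ligase gene SIAH2 had 0.28, and SIAH1 had 0.26 on its brightest probe set, 0.00 on the next and -0.69 on a dim one. DACT1 was below the median, with 2.55 on both arrays.

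Upstream and downstream of the complex, the genes at least 2-fold apart on their brightest probe sets were ZNRF3, HIPK2, CCND1 and CLDN1. All were lower in AGS.W. ZNRF3 stands in both the receptor and the target list, and 1.94% of all genes that passed were 2-fold lower. Of 21 receptor and signalosome genes, ZNRF3, a membrane ligase that removes Wnt receptors and is a target of the pathway, had 4.17 in AGS.W beside 5.61 in AGS.veh on its single probe set, 2.73-fold lower. Its partner RNF43 had a difference of 0.26. Of 21 nuclear factors, the kinase gene HIPK2 had 5.59 and 6.63, and 7 of its 10 probe sets were lower, with a mean of -0.30. PYGO1, which links β-catenin to chromatin, had 4.09 in AGS.W beside 5.09 in AGS.veh, just short of 2-fold. It was lower on all 3 of its probe sets. In the other direction, TBL1XR1 had 0.83 and the receptor gene FZD10 0.77 on their brightest probe sets. TLE3 had 0.48 on its brightest probe set and was higher on all 4, with 1.16, past 2-fold, on 206472_s_at. Of the nuclear factors 8 were higher and 11 lower, and of the receptor and signalosome genes 11 were higher and 9 lower.

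Of 27 listed target genes that passed, CCND1, CLDN1 and ZNRF3 were at least 2-fold lower, 0 were 2-fold higher and the median was 0.12. This median was not stable. Without the signal filter it was 0.00 over 37 target genes, and with probe sets averaged 0.03 over 24. Cyclin D1 (CCND1) was lower on both of its probe sets, with 6.66 in AGS.W beside 8.46 in AGS.veh on 208711_s_at and 5.95 and 7.85 on 208712_at. The tight junction gene CLDN1 had 4.39 and 5.71, and its dimmer probe set had a difference of -0.60. Set beside AXIN2, other feedback genes of the pathway had differences of 0.27 for NKD1, 0.58 for NKD2, 0.26 for RNF43 and 0.00 for NOTUM. ZNRF3 had -1.45 and DKK1 -0.11, and LGR5 was below the median with 3.10 on both arrays. The target genes thus did not share a direction, with 15 higher, 11 lower and 1 equal.

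β-catenin reaches its target genes through factors of the TCF/LEF family. The promoter windows of RefSeq (build GRCh38.p14, 250 bases before to 50 after the start) were searched on both strands for the core of their motif, the letters CTTTG followed by a pair of letters that are each A or T. The 4 spellings do not overlap with each other at a position. AXIN2 and BTRC have no entry in the table. Of the 8 other members 0 had a match, beside 6 of 25 target genes with an entry and 16.4% of all 27305 genes. The windows below are shown because they belong to targets measured here that hold 2 or 3 matches each, with the match in capitals. All are written along the strand of the gene, so that a match on the opposite strand reads TTCAAAG.
DKK1, chr10:52314177-52314201, + strand: ctcccagcgCTTTGAAatcccatcc
DKK1, chr10:52314196-52314220, + strand: ccatcccggCTTTGTTgtctccctc
SP5, chr2:170715180-170715204, + strand: ctttgtggaTTCAAAGgatttgctt
SP5, chr2:170715219-170715243, + strand: gccgctattCTTTGATgattgggta
SP5, chr2:170715244-170715268, + strand: gcggcaaacTTCAAAGccataaatc
MMP7, chr11:102530926-102530950, - strand: aaaaaaatcCTTTGAAagacaaata
MMP7, chr11:102530841-102530865, - strand: acacatactTTCAAAGttctgtaga

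DKK1, a secreted inhibitor of Wnt receptors, had bright signals of 10.81 in AGS.W beside 10.92 in AGS.veh. SP5, a transcription factor, had 4.09 and 3.79, and the protease gene MMP7 had 4.16 and 4.84. Genes with these letters thus lay on either side, and a match is a description of sequence and not a measured binding site.

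**Figure D3:**
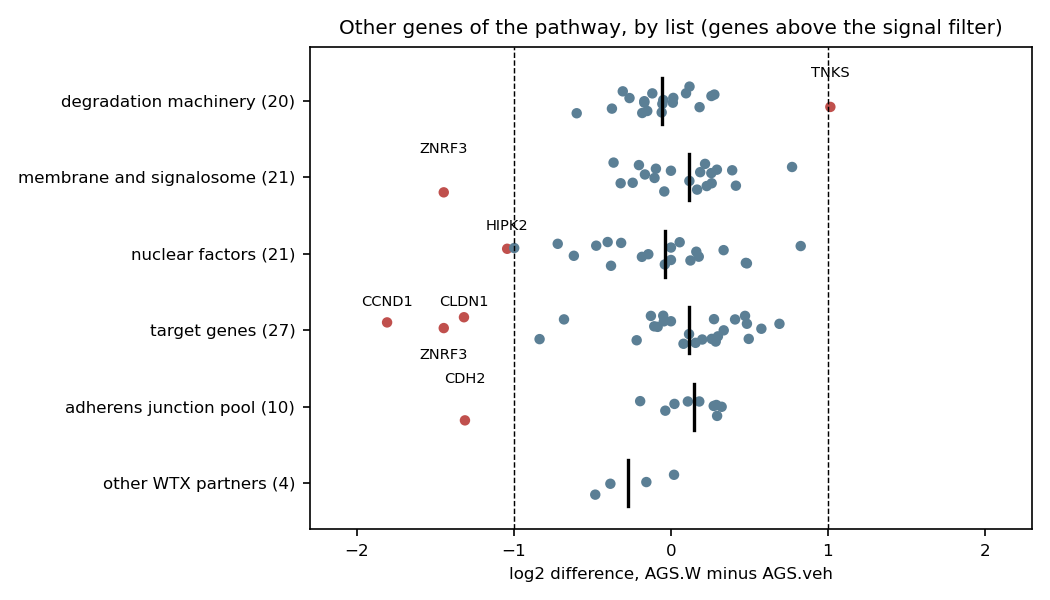
Difference AGS.W minus AGS.veh in log2 units (horizontal axis) of the genes that passed the signal filter in each of the 6 lists, with the number of genes in brackets, list medians as black bars and 2-fold as dashed lines. Genes at least 2-fold apart are red and named, and ZNRF3 is in 2 lists.

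β-catenin also sits in adherens junctions, where it links cadherins to α-catenin. CDH1 was below the median, with 2.72 in AGS.W beside 2.50 in AGS.veh. The neural cadherin CDH2 had 5.15 and 6.46, 2.48-fold lower, but a difference of -0.17 on its other probe set. Of the other catenins, CTNNA1 had a difference of 0.29 and was higher on 4 of 5 probe sets, but had -0.54 on 215883_at, above the median. JUP, encoding γ-catenin, had a difference of 0.32. Of other proteins known to bind WTX or its partners, KEAP1 had -0.48, NFE2L2 0.02, SQSTM1 -0.16 and TRIM28 -0.39. SQSTM1 was lower on its brightest probe set alone, 1 of 5, and had a mean of 0.01. WT1 was below the median with 3.01 on both arrays.

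**Figure D4:**
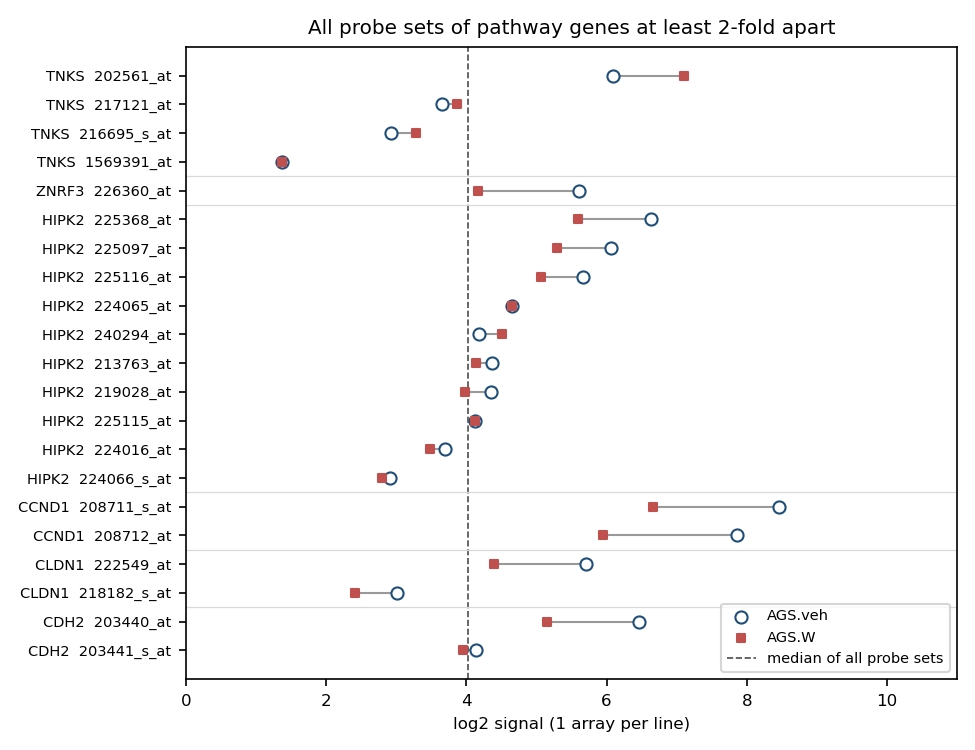
Log2 signal (horizontal axis) of every probe set of the 6 pathway genes at least 2-fold apart, in AGS.veh (open circles) and AGS.W (filled squares), 1 array each, with the median of all probe sets as a dashed line. Both CCND1 probe sets show a gap of similar size, whereas only the brightest probe set of TNKS, HIPK2, CLDN1 and CDH2 reaches 2-fold.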

How the data were processed

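Total RNA of 1 AGS.W and 1 AGS.veh culture was measured on Affymetrix U133 Plus 2.0 arrays. The authors deposited normalized log2 signals, 1 per probe set and array, and the submitters' processing notes list RMA and MAS5 without a role or version. The background correction is not given in the sources used here. For arrays, the number of arrays limits the precision. Nothing was renormalized. After leaving out 62 control probe sets, AGS.veh was subtracted from AGS.W. Genes came from platform annotation of 2016, updated through RefSeq gene identifiers, and 1801 probe sets with several genes and 11721 without a name were not used for genes. Listed genes without a probe set of their own, such as TCF7 and CTNND1, were not analysed here. The text names all members with every probe set, all degradation machinery genes, and up to 3 list genes per direction past 2-fold, and further genes were chosen after their values were seen. Members and lists were chosen with earlier results of these data known. The FDR of the methods needs replicates and was not applied. The scripts were tested on simulated data. The tools were matplotlib 3.10.9, statsmodels 0.14.6, pandas 2.3.3 and numpy 2.4.6 under Python 3.11.15.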

Additional observations from a re-analysis of the deposited data

How the results depend on the processing

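No paired analysis was possible because the design holds a single array of either line, which also leaves none to omit. Alternatives were 3 scalings (equal medians, quantile normalization, a lowess curve of span 0.3), fold thresholds of 1.5 and 3, other signal filters and other summaries of the probe sets of a gene. Moves were judged by the robust SD of the differences of probe sets of similar signal. Of 50 alternative values for the 10 members, 48 stayed within 1 such SD and 0 reached 2-fold, the largest being 0.83 for AXIN2 under quantile normalization. Beyond it were AXIN2 at 0.25 averaged over its probe sets and BTRC at -0.53 without _x_at and _s_at types. BTRC and, when averaged, GSK3B (0.02) changed sign. So did RNF146 (0.04), SIAH1 (-0.15) and CSNK1D (-0.05) when averaged, and SIAH1 (-0.69), CSNK1D (-0.35), GSK3A (0.10) and CUL1 (0.54) without those types, which makes 9 sign changes. For genes with 1 probe set, such as AMER1 and AXIN1, these summaries repeat the main value and show nothing about stability. Leaving out _x_at and _s_at types also repeats the main value for AMER2, AMER3, AXIN2, GSK3B and CTNNB1, whose brightest probe sets are of neither type. The scalings could move values little, since the array medians were 4.02 and 4.03 before them. The count of 48 therefore says little about stability. At 1.5-fold, 2 member probe sets were higher, and of 100 pathway genes 4 were higher and 11 lower. At 3-fold, 0 of these pathway genes were higher and 1 lower. Averaging the probe sets of each gene, 0 of 93 pathway genes that passed were 2-fold higher and 2 lower. Shares over all genes were not computed at these settings, so no shift of the pathway can be read from the counts. TNKS then had 0.40, HIPK2 -0.30, CLDN1 -0.96 and CDH2 -0.74, each below 2-fold.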
